A study of Mus musculus with 16 samples.

Results

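The 30 genes described here encode the enzymes and regulators with which the liver turns sugar carbon into fatty acids and stores them as triglyceride. They were taken by gene symbol from the deposited count table, by a list whose rule uses no measured value but which was drawn up with earlier results of these data known, and make up 30 of the 40324 distinct symbols in that table. All 30 were found, each on 1 line, and all 30 passed the filter on low counts. The samples were livers of littermate db/db mice, a strain that lacks the full-length leptin receptor and becomes obese and diabetic. Mice received, at about 5 weeks of age, an adeno-associated virus of serotype 8 (AAV8) that carried either green fluorescent protein (GFP, 8 samples) or arcA (8 samples). Liver was taken 5 weeks after infection, at 10 weeks of age. Both groups therefore share the db/db background and the viral vector, and no lean or uninjected mice are among the samples analysed here. The labels give neither the product of arcA, nor the promoter that drives the transgene, nor the sex of the mice.

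In a fed liver, glucose and fructose are broken down to pyruvate, and mitochondrial citrate is exported and cleaved to acetyl-CoA in the cytosol. Acetyl-CoA carboxylase and fatty acid synthase build palmitate from it with reducing power from NADPH, elongases and desaturases modify the chain, and acyltransferases join the chains to glycerol. Insulin acts on this program mainly through the transcription factor encoded by Srebf1, and glucose mainly through the factor encoded by Mlxipl. In db/db mice the program is known to run at a high rate while the liver is resistant to insulin in its handling of glucose.

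With all libraries the genes showed no common direction between arcA and GFP livers. Of the 30 genes, 2 were higher in arcA livers (edgeR, adjusted p under 0.05), and 0 were lower. Over all 14476 genes tested, 4.27% were higher and 6.57% lower, or 10.8% in either direction, so the share of called genes among the 30 lay near that background. The genes that rose were Mlxipl, by a log2 fold change of 0.49, and Dgat2, which encodes the main enzyme of the last step of triglyceride synthesis, by 0.31. Fold changes are given throughout as log2 of arcA over GFP. At an unadjusted p under 0.05 there were 5 of the 30 genes, Acss2, Aacs and Lpin1 beside those already named, against 3608 of the 14476 genes tested. The fold change was positive for 15 genes and negative for 15, with a median of -0.015, against 0.0091 over all genes tested. Without GFP 2, GFP 3 and GFP 5, the libraries richest in the transcript Gm42418, 9 were positive and 21 negative, with a median of -0.18 against 0.0028 over all genes tested, and 0 of the 30 genes were higher. Without arcA 6 there were 12 positive and 18 negative, with a median of -0.12. Without GFP 7 the shift went the other way, with 16 positive, 14 negative and a median of 0.080. For 0 of the 30 genes were the 2 groups free of overlap, a state found for 1.76% of all tested genes. With DESeq2 3 genes were higher (Elovl3 in addition) and 0 lower, and with limma voom 2 were higher and 1, Lpin1, was lower.

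**Figure D1:**
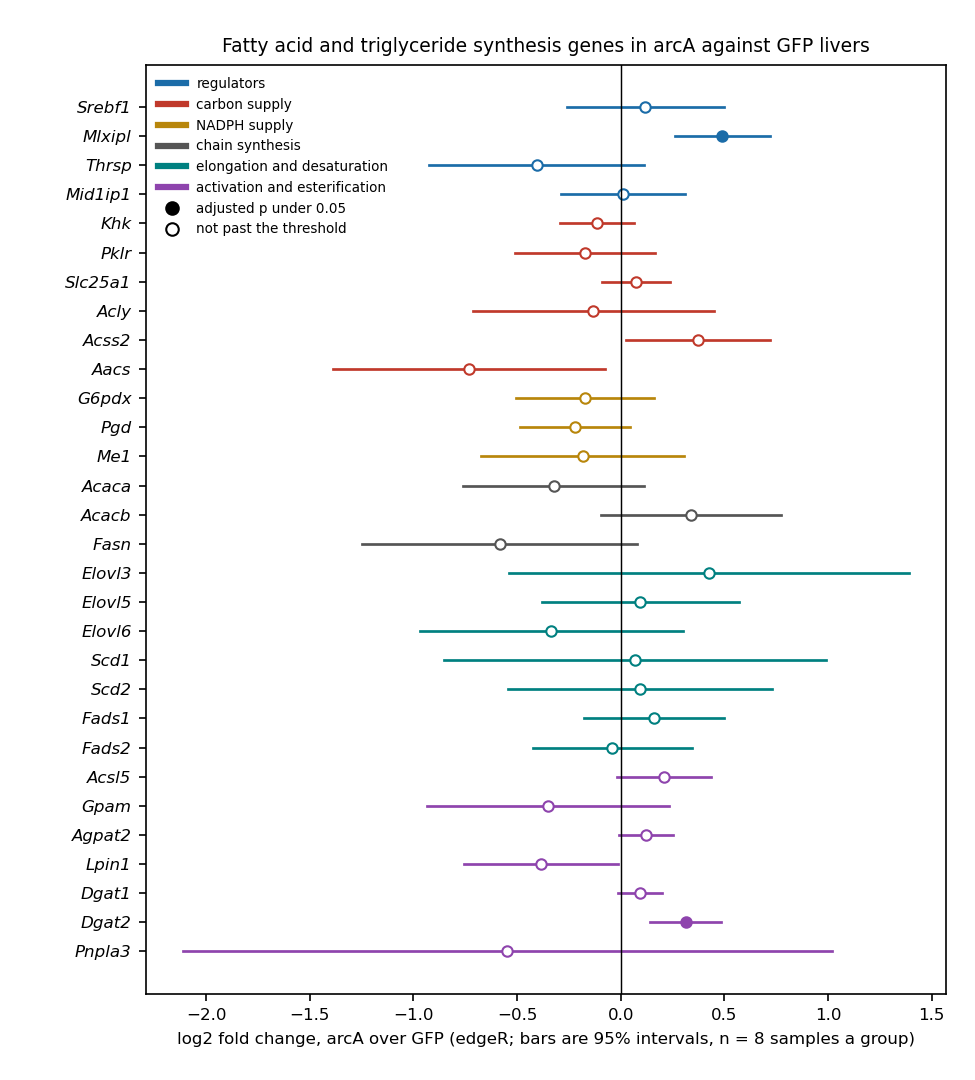
Log2 fold change of each of the 30 genes, arcA over GFP, with its 95% interval from edgeR (8 samples a group), colored by role in the pathway. Filled points mark Mlxipl (0.49) and Dgat2 (0.31), the 2 genes past an adjusted p of 0.05. The widest interval is that of Pnpla3, from -2.11 to 1.02.

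The libraries held 28912563 to 53520828 counts in the GFP group and 37325610 to 45874797 in the arcA group, and the 30 genes took 0.676% to 3.89% of the counts in GFP livers and 1.33% to 2.99% in arcA livers. All 14 hepatocyte markers found in the table were expressed. Their summed level was 90621 to 104339 CPM (counts scaled to a library of standard size) in GFP and 91091 to 121294 in arcA livers. The group medians of this sum were 96692 in GFP and 110981 in arcA livers. Of the 14 markers 13 had a positive log2 fold change and 1 a negative, with a median of 0.22. By edgeR 2 of them were higher and 0 lower. The 9 adipocyte markers summed to 18.2 to 43.5 CPM in GFP and 13.03 to 20.8 in arcA livers, most of it from Fabp4 and Cidec. The defining markers Adipoq (0 to 8 counts), Plin1 (0 to 4) and Lep (0 to 3) were at or near 0 in every library. Of the 4 adipocyte markers tested, Retn was higher in arcA livers (log2 fold change 1.68) and the other 3 did not pass, Cidec being at -1.31 (edgeR adjusted p = 0.0579). Lower in arcA livers were 9 of 9 tested markers of T and natural killer cells, 4 of 4 of B and plasma cells, 4 of 9 of Kupffer cells and macrophages and 5 of 7 of lipid-associated macrophages. So were 5 of 7 markers of stellate cells and fibroblasts and 1 of 6 of sinusoidal endothelial cells. Every tested marker of these last 2 lists had a negative log2 fold change. Of 4 tested bile duct markers 0 passed. Of the neutrophil markers 2 were tested and 0 passed, with positive log2 fold changes of 0.49 and 0.84. The summed T and natural killer cell markers ran from 9.38 to 21.9 CPM in GFP livers and from 0.675 to 3.13 in arcA livers. Those of stellate cells and fibroblasts ran from 267.5 to 347.0 CPM in GFP and from 172.6 to 255.8 in arcA livers, without overlap. In whole liver, fewer cells of a type and less RNA per cell cannot be told apart. Gm42418, a transcript whose annotation lies over ribosomal RNA, made up 11.8%, 18.1% and 19.4% of the counts in GFP 2, GFP 3 and GFP 5 and 2.29% to 7.37% in the other 13 libraries. Scaling on total counts alone in place of TMM changed the calls over all genes from 618 higher and 951 lower to 255 higher and 800 lower. Scaling on the hepatocyte markers gave 67 higher and 2782 lower and moved the median over all genes to -0.17.

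Among the regulators, Mlxipl was the gene that rose. It encodes ChREBP, a transcription factor activated by sugar metabolites that induces glycolytic and lipogenic enzymes. Mlxipl was at 100.3 CPM in the lowest GFP library, 130 at the median and 166 in the highest, and at 142, 176 and 215 in the arcA libraries. All 8 arcA libraries lay above the GFP median, while the groups overlapped between the lowest arcA and the highest GFP libraries. The log2 fold change was 0.49 (SE 0.109, 95% interval 0.26 to 0.72, edgeR adjusted p = 0.00730). With hepatocyte marker scaling the log2 fold change was 0.30 (edgeR adjusted p = 0.0573). Relative to the median of all genes it was 0.48 with TMM, 0.48 with total counts alone and 0.48 with hepatocyte marker scaling. A change of scaling moves all genes by nearly the same amount, so these values must agree and are no test of the rise. Without GFP 2, GFP 3 and GFP 5, the libraries with the highest Gm42418 share, the log2 fold change was 0.40 (edgeR adjusted p = 0.0600). The part of the cell type markers, immune or other, in this result was not tested.

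The reference holds 2 start sites for Mlxipl (GRCm38 chromosome 5, 135089890 to 135138382, plus strand) that lie 17001 bases apart. The alternative first exons are known to give the alpha and the beta form of ChREBP, and the deposited counts, summed over the gene, do not separate them. The 250 bases before each start (RefSeq, GRCm38.p6, plus strand, 5′ to 3′) are shown because Mlxipl rose most among the genes past the threshold. Capitals mark matches, on either strand, to the E-box CACGTG, the sterol regulatory element TCACNCCAC, the CCAAT box CCAAT and the GC box GGGCGG.
Mlxipl upstream start, chr5:135089640-135089889: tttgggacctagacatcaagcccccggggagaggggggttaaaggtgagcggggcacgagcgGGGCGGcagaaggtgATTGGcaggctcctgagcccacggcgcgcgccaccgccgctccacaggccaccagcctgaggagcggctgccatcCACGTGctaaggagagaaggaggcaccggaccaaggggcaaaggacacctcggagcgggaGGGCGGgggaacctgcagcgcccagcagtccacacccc
Mlxipl downstream start, chr5:135106641-135106890: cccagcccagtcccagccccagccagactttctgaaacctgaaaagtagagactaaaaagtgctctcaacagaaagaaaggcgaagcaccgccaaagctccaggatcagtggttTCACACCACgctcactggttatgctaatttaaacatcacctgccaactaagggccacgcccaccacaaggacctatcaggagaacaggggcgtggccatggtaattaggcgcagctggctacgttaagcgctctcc
The upstream window held an E-box, a CCAAT box and 2 GC boxes, and the downstream window held the sterol regulatory element alone. Of the 30 genes, 24 were matched in the promoter table, with 31 start sites. Scd1, Scd2, Dgat1, Dgat2, Fads1 and Elovl3 were not matched, so the shares do not describe all 30 genes. Among the 31 starts 12.9% (4 starts) held an E-box, against 6.02% of all 32851 windows of the same length. The sterol regulatory element was present at 3.23% (1 start, that of Mlxipl), against 1.05%. A CCAAT box was present at 48.4% of the 31 starts and 33.8% of all starts, and a GC box at 48.4% and 32.7%. These matches describe the letters in the windows and are not measured binding.

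Srebf1 encodes SREBP-1, the factor through which insulin raises the transcription of most enzymes in this list. Its level was 252 CPM in the lowest GFP library, 354 at the median and 555 in the highest, and 292, 388 and 590 in the arcA libraries. The ranges overlapped almost wholly, and 5 of the 8 arcA libraries lay above the GFP median. Srebf1 had a log2 fold change of 0.12 (SE 0.178, 95% interval -0.26 to 0.50, edgeR adjusted p = 0.749). Transcript level is only part of SREBP-1 activity, which is known to depend on cleavage of the precursor protein, and the cleaved protein is not measured by these data.

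Thrsp encodes Spot 14, a small protein induced by feeding and thyroid hormone, and was the second most abundant of the 30 transcripts per kilobase of exon. Thrsp ran from 623 to 1986 CPM in GFP and from 588 to 1490 in arcA libraries, with a log2 fold change of -0.41 (SE 0.244, edgeR adjusted p = 0.333). Mid1ip1, its paralogue, which promotes the assembly of acetyl-CoA carboxylase into filaments, ran from 38.3 to 82.5 CPM and from 41.4 to 67.2, with a log2 fold change of 0.010 (SE 0.142).

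Of the 6 genes that supply carbon, 0 passed the threshold, and their median on the log2 fold change scale was -0.12. Khk encodes the kinase that commits fructose to breakdown. It was one of the steadiest of the 30 genes, at 812 to 1014 CPM in GFP and 653 to 989 in arcA libraries, with a log2 fold change of -0.11 (SE 0.0852). Pklr, the liver pyruvate kinase and a textbook target of ChREBP, ran from 260 to 521 CPM and from 220 to 468. Its log2 fold change was -0.17 (SE 0.160), opposite in sign to that of Mlxipl. Slc25a1 encodes the carrier that exports citrate from mitochondria, and Acly the enzyme that splits citrate into acetyl-CoA and oxaloacetate. Slc25a1 was at 212 to 332 CPM in GFP and 259 to 316 in arcA libraries (log2 fold change 0.074, SE 0.0777). Acly varied more between livers, from 222 to 843 CPM in GFP and from 268 to 664 in arcA libraries, with a log2 fold change of -0.13 (SE 0.272).

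Acss2 and Aacs activate acetate and acetoacetate in the cytosol, and their values lay on opposite sides of 0. Acss2 ran from 105 to 230 CPM in GFP and from 152 to 316 in arcA libraries, and 7 of 8 arcA libraries lay above the GFP median. Its log2 fold change was 0.37 (SE 0.164, edgeR adjusted p = 0.168), and 0.25 to 0.46 with single libraries left out. Aacs, which lets ketone bodies enter lipid synthesis, had the most negative fold change of the 30 genes, -0.73 (SE 0.306, 95% interval -1.39 to -0.076, edgeR adjusted p = 0.149). It ran from 39.4 to 152 CPM in GFP and from 30.9 to 97.7 in arcA libraries, and 7 of 8 arcA libraries lay below the GFP median. Both genes had an unadjusted p under 0.05, 0.0379 for Acss2 and 0.0312 for Aacs, and neither passed over all genes.

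The 3 genes of NADPH supply had negative fold changes, none past the threshold. G6pdx and Pgd encode the oxidative steps of the pentose phosphate pathway, and Me1 the cytosolic malic enzyme. G6pdx was the least abundant of the 30 per kilobase of exon, at 2.63 to 5.22 CPM in GFP and 2.60 to 4.83 in arcA libraries (log2 fold change -0.17, SE 0.160). Pgd was at 51.4 to 109 CPM and 56.7 to 74.6 (log2 fold change -0.22, SE 0.125). Me1 was at 148 to 455 CPM and 194 to 339 (log2 fold change -0.18, SE 0.230).

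The 3 genes of chain synthesis had the lowest median fold change of the 6 roles, -0.32, and 0 of them passed the threshold. Fasn encodes the synthase that builds palmitate. Its level was 648 CPM in the lowest GFP library, 1748 at the median and 2916 in the highest, and 658, 1037 and 2297 in the arcA libraries. In 7 of 8 arcA libraries Fasn lay below the GFP median, the exception being arcA 6, and within the GFP group the highest library exceeded the lowest 4.50 times. For Fasn this gave a log2 fold change of -0.58 (SE 0.311, 95% interval -1.25 to 0.081, edgeR adjusted p = 0.267). Without arcA 6 it was -0.81 (edgeR adjusted p = 0.0925). Over all single libraries left out, Fasn ran from -0.81 to -0.44 (highest edgeR adjusted p 0.461).

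Acaca and Acacb encode the 2 acetyl-CoA carboxylases, the first in the cytosol for synthesis and the second at mitochondria, where its product restrains fatty acid oxidation. Acaca was at 83.6 CPM in the lowest GFP library, 129 at the median and 218 in the highest, and at 74.2, 106 and 178 in the arcA libraries. Here too 7 of 8 arcA libraries lay below the GFP median and arcA 6 lay above it. Between the groups, Acaca had a log2 fold change of -0.32 (SE 0.205, edgeR adjusted p = 0.363). Acacb had the opposite sign, 0.34 (SE 0.203, edgeR adjusted p = 0.333), with 69.8 to 158 CPM in GFP and 93.2 to 243 in arcA libraries. Leaving out single libraries gave 0.17 to 0.43 for Acacb. The difference between the fold changes of Acaca and Acacb was not tested.

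Of the 7 elongases and desaturases, 0 passed the threshold with edgeR. Scd1 encodes the stearoyl-CoA desaturase that makes oleate, and it was the most abundant of the 30 transcripts per kilobase of exon, at a mean of 1944 CPM per kilobase in GFP and 2040 in arcA libraries. Scd1 was at 1730 CPM in the lowest GFP library, 8208 at the median and 20901 in the highest, and at 5982, 9969 and 17891 in the arcA libraries. The highest library exceeded the lowest 12.1 times in the GFP group and 2.99 times in the arcA group. For Scd1 the log2 fold change was 0.069 (SE 0.431, 95% interval -0.85 to 0.99, edgeR adjusted p = 0.946), an interval that holds changes of considerable size in both directions. Scd2, a close paralogue of Scd1 beside it on chromosome 19, ran from 13.1 to 65.8 CPM and from 26.5 to 55.3 (log2 fold change 0.094, SE 0.298). The split of counts between them is uncertain, since the sources used here do not say how reads matching both were assigned.

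Elovl3 encodes an elongase of saturated and monounsaturated very long chains. It stood at 7.64 CPM in the lowest GFP library, 13.6 at the median and 75.5 in the highest, and at 10.6, 29.6 and 38.0 in the arcA libraries. GFP 1 alone was at 75.5 CPM, the other 7 GFP libraries lay below every arcA library except arcA 6, and 7 of 8 arcA libraries lay above the GFP median. With all libraries the log2 fold change was 0.43 (SE 0.452, edgeR adjusted p = 0.625). Without GFP 1 it was 1.14 (edgeR adjusted p = 0.00897). DESeq2, which replaced the GFP 1 count of 3369 with 926 as an outlier, gave 1.01 (DESeq2 adjusted p = 7.41e-04). Whether Elovl3 passed therefore turned on that 1 library.

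Elovl6 lengthens palmitate to stearate, and Elovl5, Fads1 and Fads2 act on polyunsaturated chains. Elovl6 ran from 166 to 548 CPM in GFP and from 142 to 449 in arcA libraries (log2 fold change -0.33, SE 0.297). Elovl5 ran from 321 to 1201 CPM and from 548 to 999.8 (log2 fold change 0.094, SE 0.224). The 2 desaturases of polyunsaturated fatty acids differed little between the groups relative to their spread. Fads1 ran from 260 to 504 CPM and from 266 to 626 (log2 fold change 0.16, SE 0.160). Fads2 was at 199.6 to 491 CPM and 224 to 480.1 (log2 fold change -0.041, SE 0.181).

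Esterification held the other gene that rose. Dgat2 encodes the acyltransferase that adds the last fatty acid to diacylglycerol and is known to favor newly made fatty acids. Its level was 411 CPM in the lowest GFP library, 493 at the median and 664 in the highest, and 525, 647 and 686 in the arcA libraries. All 8 arcA libraries lay above the GFP median, and of the GFP libraries only GFP 8, at 664, stood above the arcA median. Dgat2 had a log2 fold change of 0.31 (SE 0.0823, 95% interval 0.14 to 0.49, edgeR adjusted p = 0.0173). With hepatocyte marker scaling the log2 fold change was 0.14 (edgeR adjusted p = 0.227). Relative to the median of all genes it was 0.30 with TMM and 0.31 with hepatocyte marker scaling, values that must agree for the reason given for Mlxipl. Without GFP 2, GFP 3 and GFP 5 the log2 fold change was 0.27 (edgeR adjusted p = 0.112). The part of the cell type markers, immune or other, in the rise of Dgat2 was not tested.

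Dgat1 encodes an unrelated enzyme for the same reaction and was the steadiest of the esterification genes. Dgat1 was at 21.6 CPM in the lowest GFP library, 24.4 at the median and 27.2 in the highest, and at 24.6, 26.0 and 28.2 in the arcA libraries. All 8 arcA libraries lay above the GFP median, but the log2 fold change was 0.094 (SE 0.0503, 95% interval -0.011 to 0.20, edgeR adjusted p = 0.260). Per kilobase of exon, Dgat2 was at a mean of 164 CPM in GFP and 204 in arcA libraries, and Dgat1 at 8.03 and 8.57.

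Gpam encodes the mitochondrial enzyme that adds the first fatty acid to glycerol 3-phosphate. Gpam was at 99.8 CPM in the lowest GFP library, 198 at the median and 359 in the highest, and at 103, 146 and 308 in the arcA libraries. As for Fasn and Acaca, 7 of 8 arcA libraries lay below the GFP median and arcA 6 lay above it. For Gpam the log2 fold change was -0.35 (SE 0.274, edgeR adjusted p = 0.478), and without arcA 6 it was -0.56 (edgeR adjusted p = 0.195). Over all single libraries left out, Gpam ran from -0.56 to -0.20 (highest edgeR adjusted p 0.739). Of the other genes of this role, Acsl5, which activates fatty acids, ran from 319 to 564 CPM in GFP and from 441 to 607 in arcA libraries. All 8 arcA libraries lay above the GFP median for Acsl5 (log2 fold change 0.21, SE 0.108, edgeR adjusted p = 0.243). Agpat2, which adds the next fatty acid, ran from 252 to 347 CPM and from 279 to 334 (log2 fold change 0.12, SE 0.0621).

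Lpin1 encodes a phosphatidic acid phosphatase that yields diacylglycerol and also acts as a transcriptional coactivator. Lpin1 was at 23.9 CPM in the lowest GFP library, 33.9 at the median and 37.5 in the highest, and at 16.2, 22.8 and 46.3 in the arcA libraries. The arcA library at 46.3 was arcA 6, and the other 7 arcA libraries lay at 28.0 or below. Lpin1 had a log2 fold change of -0.38 (SE 0.175, edgeR adjusted p = 0.185). Without arcA 6 it was -0.58 (edgeR adjusted p = 0.00285), and limma voom on all libraries gave -0.51 (limma adjusted p = 0.0340). Over the 16 single libraries left out, Lpin1 ran from -0.58 to -0.31 (highest edgeR adjusted p 0.287) and was called in 1.

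Pnpla3 encodes a lipid droplet protein whose transcript is known to rise steeply with feeding. It varied most of the 30 genes, from 0.603 CPM in the lowest GFP library over 3.89 at the median to 15.6 in the highest, and from 0.808 over 2.77 to 16.1 in the arcA libraries. The libraries above 10 CPM were GFP 6, GFP 7 and arcA 6. For Pnpla3 the log2 fold change was -0.55 (SE 0.732, edgeR adjusted p = 0.713).

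**Figure D2:**
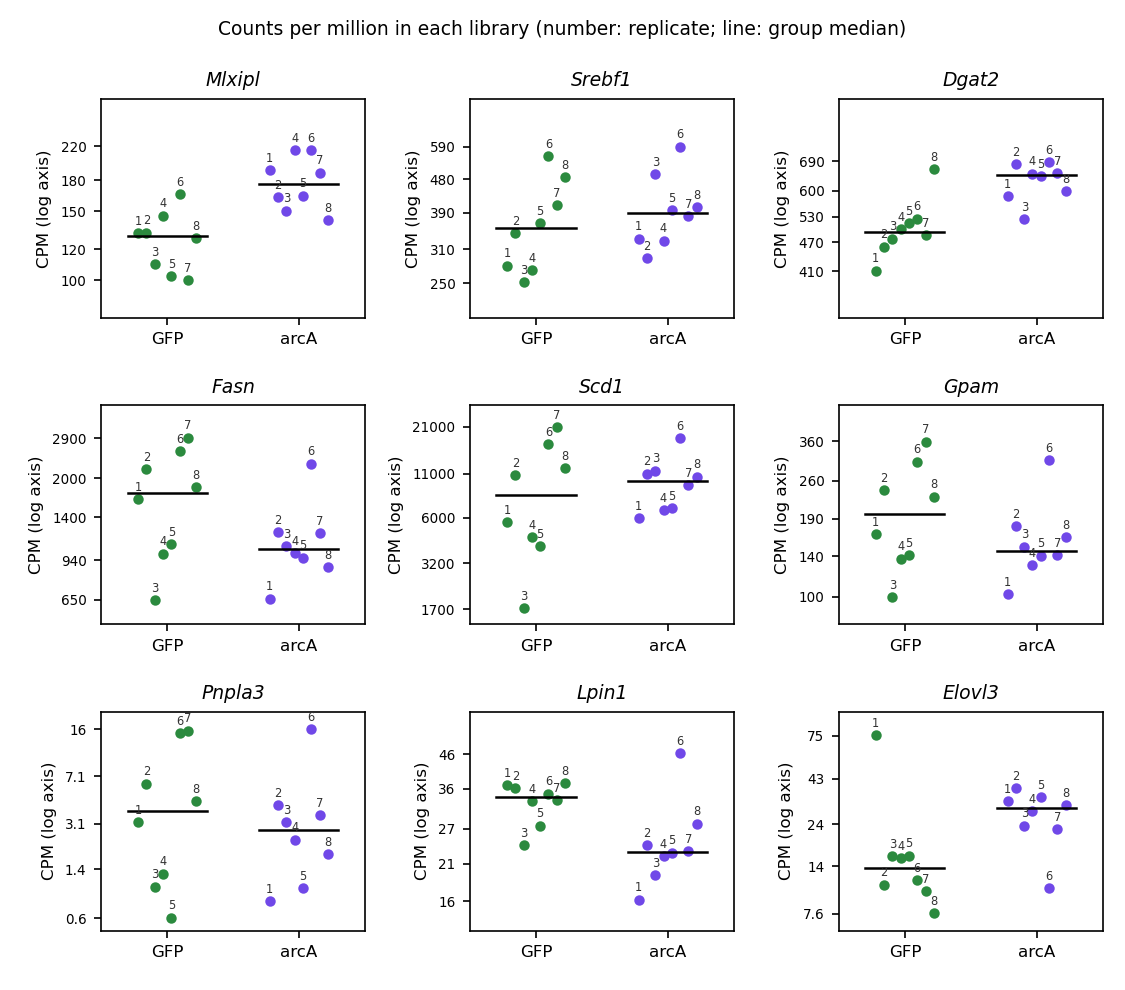
CPM of 9 genes in each library on log axes, with replicate numbers and the group median as a line. Mlxipl and Dgat2 lie higher in arcA libraries, Fasn and Gpam lie below the GFP median in all arcA libraries but arcA 6, and Elovl3 is at 75.5 CPM in GFP 1.

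Livers of the same group differed widely in the levels of these genes. The standard deviation of log2 CPM had a median over the 30 genes of 0.400 in GFP and 0.352 in arcA livers, against 0.204 and 0.191 over all genes tested. It was larger in the GFP group for 25 of the 30 genes (83.3%), and for 53.4% of all genes tested. Without GFP 3 and GFP 7 the median over the 30 genes in the GFP group was 0.342. That alternative was chosen after the values were seen, and whether the spread differs between the groups was not tested.

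The spread followed a few livers. GFP 7 was the highest GFP library for 22 of the 30 genes, and GFP 3 was the lowest for 16 and GFP 5 for 8. In the arcA group arcA 6 was the highest library for 27 genes, and arcA 1 was the lowest for 11. Averaged over the 30 genes, log2 CPM in arcA 6 lay 0.54 above the mean of the 16 libraries, in GFP 7 0.55 above it and in GFP 6 0.43 above it. GFP 3 stood at -0.61 on the same measure, with 0 of the 30 genes above the mean, and GFP 5 stood at -0.43, with 1 gene above it. The remaining libraries lay between -0.29 and 0.19.

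Library measures moved with some of these values. GFP 3 and GFP 5 had the largest Gm42418 shares and the lowest total counts, 28912563 and 32232252, and GFP 7 had the highest total, 53520828. Other libraries did not follow this. GFP 2, with a Gm42418 share of 11.8%, stood at 0.19 on the averaged measure, with 20 genes above the mean. GFP 4, with a share of 5.83% and a total of 39323814, stood at -0.28, with 3 genes above it. GFP 7 also had the highest summed markers in its group of B and plasma cells (300.1 CPM, group median 79.9), of T and natural killer cells (21.9, median 14.4), of Kupffer cells and macrophages (340.1, median 244) and of adipocytes (43.5, median 21.5). The same held for lipid-associated macrophages (56.7, median 41.0), sinusoidal endothelial cells (105.1, median 85.6) and stellate cells and fibroblasts (347.0, median 296.8). Its neutrophil (2.33, median 2.33) and bile duct markers (3.57, median 5.38) were not the highest. Its summed hepatocyte markers, 90621 CPM, were the lowest in the group (median 96692). For arcA 6 the Gm42418 share was 5.71% and the total 41743062, both inside the range of the other arcA libraries, and its summed neutrophil markers, 14.0 CPM, were the highest in its group (median 1.82). The part of these measures in the levels of the 30 genes was not tested.

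**Figure D3:**
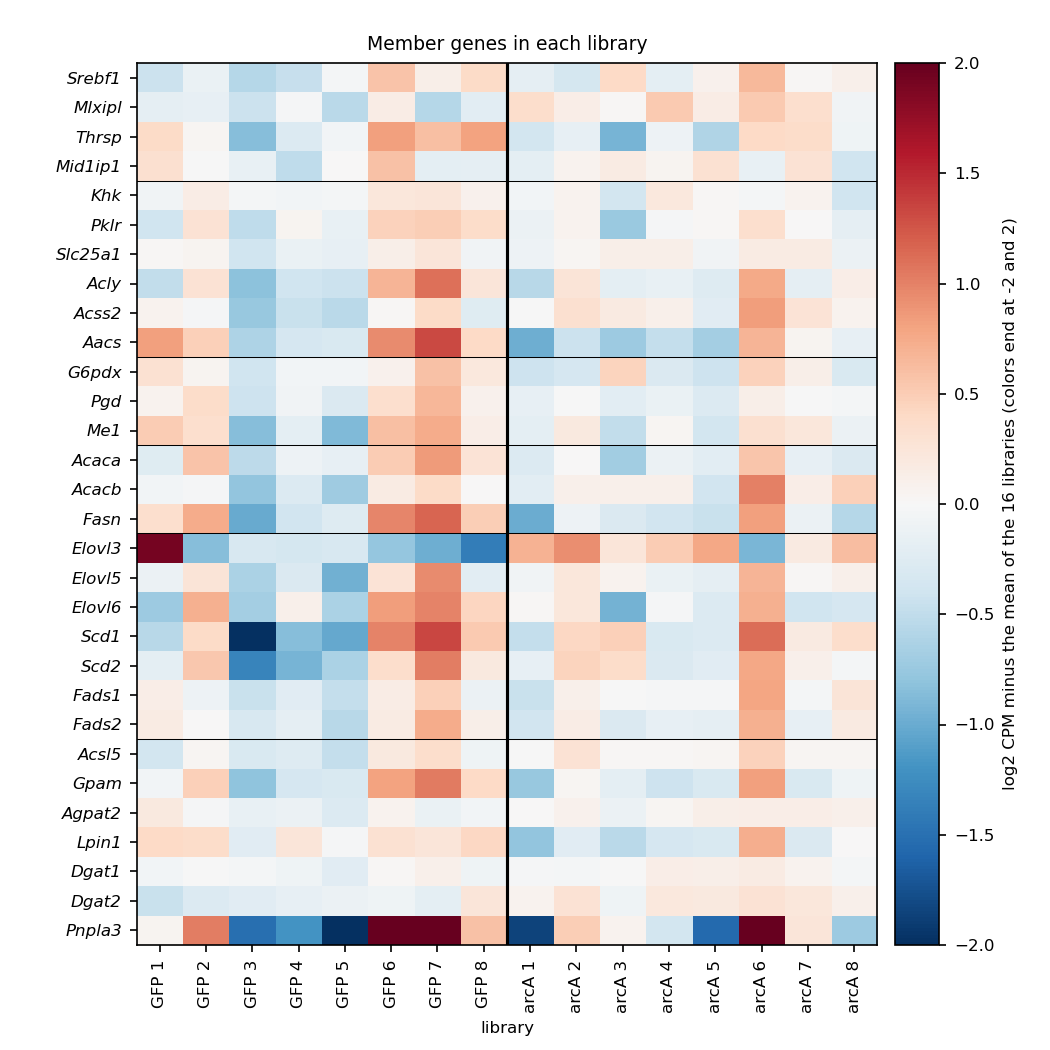
Log2 CPM of the 30 genes in each of the 16 libraries, as the difference from the mean over all libraries, with genes ordered by role. The columns of GFP 6, GFP 7 and arcA 6 are red for most genes, those of GFP 3 and GFP 5 are blue, and the row of Elovl3 is blue in GFP 6, GFP 7 and arcA 6.

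Within each group most of the genes varied together from liver to liver. Over the 8 GFP libraries the median Pearson r of the 435 gene pairs was 0.74, and 235 pairs (54.0%) had an r over 0.7. Over the 8 arcA libraries the median was 0.54, and 145 pairs (33.3%) had an r over 0.7. Over all pairs of tested genes the median was 0.00 in the GFP group, and 3.43% and 3.41% of pairs in the GFP and arcA groups had an r over 0.7. There were 118 pairs over 0.7 in both groups. All pairs share the same 8 libraries, so their values are not independent. In the arcA group the co-variation leaned on arcA 6: without it the median r was 0.26. Leaving out any single GFP library gave 0.67 to 0.82. The difference in co-variation between the groups was not tested.

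The closest pair in GFP livers was Scd1 with Gpam (r = 0.988), followed by Fasn with Gpam (0.978) and Acss2 with Aacs (0.978). In arcA livers it was Acly with Fads2 (0.979), followed by Fads1 with Lpin1 (0.978) and Acly with Gpam (0.971). Acss2 and Aacs, whose fold changes between the groups had opposite signs, thus varied together among GFP livers, and also among arcA livers (0.827). The promoters of Fasn and Gpam are shown as those of the most closely co-varying GFP pair of which both genes are in the promoter table (RefSeq, GRCm38.p6, minus strand, 5′ to 3′, the 250 bases before the start, for Gpam the most upstream of its starts). Capitals mark the same motifs as for Mlxipl.
Fasn, chr11:120824548-120824797: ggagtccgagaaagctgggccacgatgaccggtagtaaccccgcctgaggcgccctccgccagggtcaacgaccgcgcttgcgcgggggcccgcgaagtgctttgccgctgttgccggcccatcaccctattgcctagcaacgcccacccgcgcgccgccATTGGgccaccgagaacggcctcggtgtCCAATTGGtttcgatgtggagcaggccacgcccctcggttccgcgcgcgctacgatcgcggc
Gpam, chr19:55127239-55127488: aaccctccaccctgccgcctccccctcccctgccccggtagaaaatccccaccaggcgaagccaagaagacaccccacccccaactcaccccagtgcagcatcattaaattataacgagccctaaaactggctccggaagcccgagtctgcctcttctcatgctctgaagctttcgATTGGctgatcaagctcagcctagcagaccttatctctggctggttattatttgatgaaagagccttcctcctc
The Fasn window held 3 matches to the CCAAT box, of which 2, on opposite strands, overlap in CCAATTGG. The Gpam window held 1 CCAAT box. The E-box, the sterol regulatory element and the GC box in the forms searched were not among the letters of either window. The window of the downstream Gpam start, not shown, held a GC box and no other of these motifs.

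Some genes stood outside this shared pattern. Elovl3 had a median r with the other genes of -0.23 in GFP and -0.65 in arcA livers, and was the common member of the most negative pairs in both groups. These were with Dgat2 (-0.73), Pklr (-0.70) and Elovl6 (-0.68) in GFP livers, and with G6pdx (-0.84), Srebf1 (-0.84) and Acss2 (-0.83) in arcA livers. Mlxipl had a median r of 0.16 in GFP and 0.32 in arcA livers, and 0 of its GFP pairs were over 0.7. In GFP 7, where 22 genes had their highest GFP value, Mlxipl had its lowest, 100.3 CPM. Dgat2, the other gene that rose, had a median r of 0.070 in GFP and 0.53 in arcA livers. Mid1ip1 had 0.27 and -0.16, and Khk had 0.75 and 0.064. By contrast Pnpla3, Gpam and Fasn had medians of 0.88, 0.88 and 0.84 in GFP and 0.77, 0.71 and 0.72 in arcA livers.

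**Figure D4:**
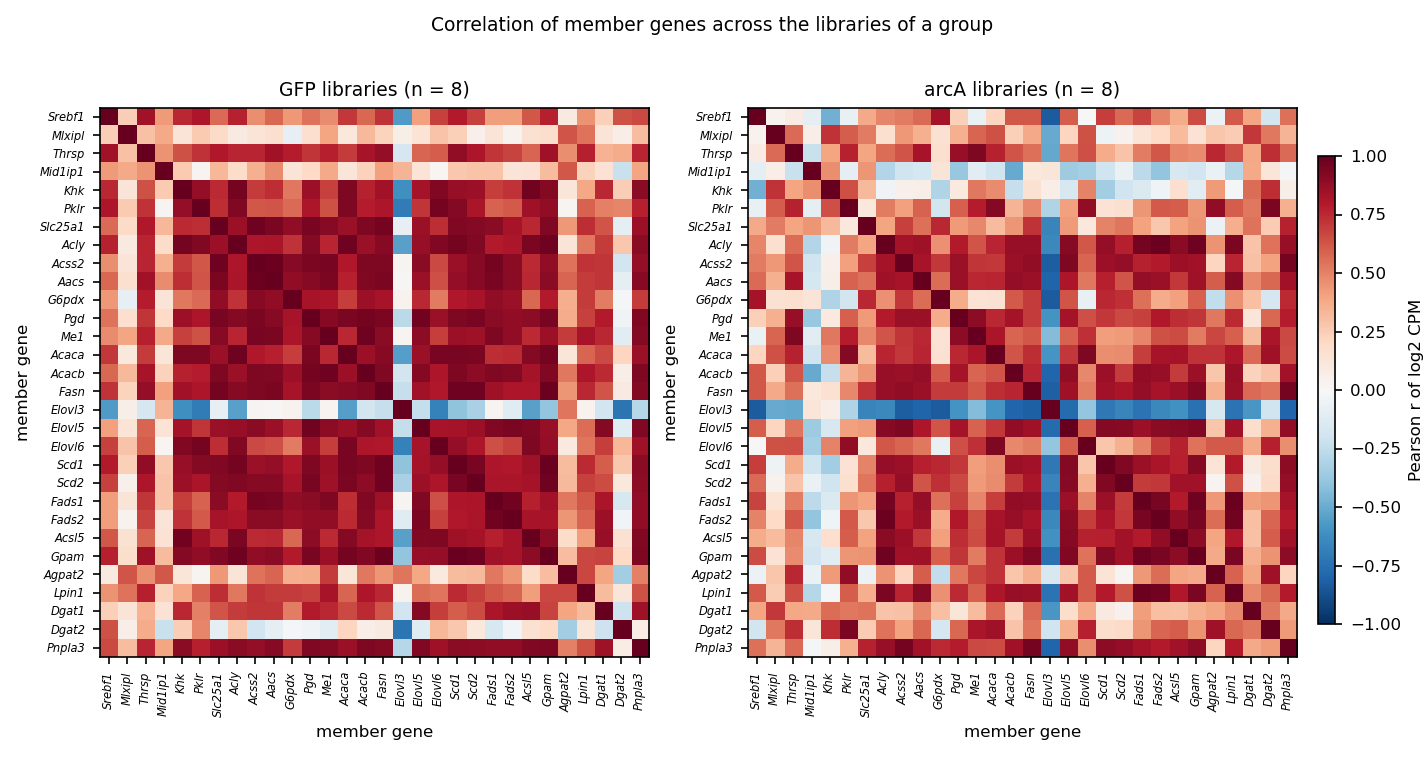
Pearson r of log2 CPM for every pair of the 30 genes over the 8 GFP libraries (left) and the 8 arcA libraries (right), from -1 (blue) to 1 (red). Most cells are red in both groups (medians 0.74 and 0.54), and the row of Elovl3 is mostly blue.

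Srebf1 and Mlxipl were each compared with the other genes in both groups, 114 relations in all, by exact permutation of the 8 libraries. None passed after Benjamini-Hochberg adjustment, with a smallest adjusted p of 0.452 (exact permutation). At an unadjusted p under 0.05 there were 7 relations of Srebf1 in GFP livers, with Thrsp, Khk, Pklr, Acly, Fasn, Scd1 and Gpam, and 2 in arcA livers, with G6pdx and Elovl3. For Mlxipl there were 0 in GFP livers and 1, with Khk, in arcA livers. The largest of the Srebf1 relations in GFP livers was with Thrsp (r = 0.836, rho = 0.905, exact permutation p = 0.0103 and 0.00456, adjusted 0.452 for r), and r was 0.718 without the 2 libraries farthest from the Srebf1 median. That with Fasn had r = 0.724, and 0.496 without the same 2 libraries, GFP 3 and GFP 6. The negative relation with Elovl3 in arcA livers (r = -0.836) was -0.433 without arcA 2 and arcA 6. Leaving out the libraries farthest from the median narrows the range of Srebf1, which by itself can bring r closer to none. The median r over the partners was 0.58 for Srebf1 and 0.16 for Mlxipl in GFP livers, and 0.39 and 0.33 in arcA livers.

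Beyond the 30 genes, 93 further genes of the pathway were looked up, of which 88 were tested. Of these 8 were higher in arcA livers and 1 was lower (edgeR), the median being 0.020 on the log2 scale, where 4.27% of all genes tested were higher and 6.57% lower. An unadjusted p under 0.05 was found for 29 of the 88 and for 3608 of all 14476 genes. Among 22 genes of SREBP processing and partner regulators, 3 rose and 1 fell. Scap, which escorts the SREBP precursor to the Golgi, rose by 0.21 (edgeR adjusted p = 0.0252), and Mbtps1, the protease that makes the initial cut there, rose by 0.16 (edgeR adjusted p = 0.0165). Mbtps1 was at 48.4 to 52.7 CPM in GFP and 53.1 to 62.5 in arcA libraries, without overlap. Cop1, a ubiquitin ligase, rose by 0.14 (edgeR adjusted p = 0.0260). Of 30 alternatives, the call was lost in 9 for Scap, 11 for Cop1 and 4 for Mbtps1. Single libraries whose omission ended the call were GFP 2, 5, 6 and 7 and arcA 6 for Scap (highest adjusted p 0.0665), and GFP 2, 4, 5 and 8 and arcA 2 for Cop1 (highest 0.0766). Txnip, a regulator of glucose uptake whose gene is a known target of ChREBP, fell by 0.53 on the log2 scale (SE 0.0945, edgeR adjusted p = 0.00145), from 27.2 to 41.2 CPM in GFP libraries to 19.0 to 27.5 in arcA libraries. Txnip and Mlxipl moved in opposite directions, and whether these changes are linked was not tested.

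The partner genes Mlxip and Nfyb did not pass, with log2 fold changes of -0.29 (edgeR adjusted p = 0.0791) and 0.17 (0.0632). Of 20 tested genes of glycolysis, fructose use and pentose phosphate supply, 0 passed with edgeR, and 4 had an unadjusted p under 0.05: Tkfc (-0.31), Rpia (-0.45), Idh1 (0.14) and Me2 (-0.45). These encode triokinase, a pentose phosphate isomerase and 2 enzymes that make NADPH or NADH from isocitrate and malate.

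Of 26 tested genes of elongation, desaturation and fatty acid activation, 3 rose and 0 fell. Acsl1, the main long-chain acyl-CoA synthetase of liver, was at 493 to 657 CPM in GFP and 687 to 847 in arcA libraries, and the groups did not overlap. Its log2 fold change was 0.40 (SE 0.0670, edgeR adjusted p = 6.78e-04), and the call held in all 30 alternatives, as did that of Txnip. Slc27a5, which activates bile acids and very long fatty acids, rose by 0.37 (SE 0.0794, edgeR adjusted p = 0.00482), from 627 to 961 CPM in GFP libraries to 940.0 to 1176 in arcA libraries. Acss3, a mitochondrial synthetase of short chains, rose by 0.29 (edgeR adjusted p = 0.0237). The call for Slc27a5 was lost in 1 of 30 alternatives, hepatocyte marker scaling, and that for Acss3 in 6, including those without GFP 5 and without GFP 7 (highest adjusted p 0.0515). Acot1, Acsl4 and Elovl1 did not pass, at 0.44 (edgeR adjusted p = 0.0506), -0.20 (0.0640) and 0.18 (0.0791).

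Of 20 genes of glycerolipid synthesis, 2 rose and 0 fell. Bscl2 encodes seipin, a protein of lipid droplet formation, and rose by 0.15 (edgeR adjusted p = 0.0218), a call lost in 12 of 30 alternatives, including those without GFP 2, GFP 3, GFP 4 or arcA 2 (highest adjusted p 0.0609). Mboat7, an acyltransferase of phosphatidylinositol, rose by 0.18 (edgeR adjusted p = 0.0437), and this call was lost in 22 of 30 alternatives, 12 of them single libraries left out: GFP 2, 3, 4, 5, 6 and 8 and arcA 3, 4, 5, 6, 7 and 8 (highest adjusted p 0.115). Lpin2, a paralogue of Lpin1, was at -0.39 (edgeR adjusted p = 0.0504), Tm6sf2 at 0.30 (0.0684), Gpat2 at -0.56 (0.0718) and Gpat4 at 0.23 (0.0725).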

How the data were processed

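Liver RNA of 8 GFP and 8 arcA samples was measured by RNA sequencing from total RNA with oligo-dT. The authors deposited unnormalized read counts for each gene symbol. The submitters' processing notes name bcl2fastq, the aligner STAR (2.5.1a), featureCounts of Subread (1.4.6-p5) and the build GRCm38. They do not give the annotation release, the strand setting or the handling of read pairs, and overlapping or antisense genes may share reads. Of the counts from 1 to 20, 69.8% were even, as separate counting of mates would give. Of 40757 lines, 348 exact copies were removed, and 85 repeated symbols were summed.

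Groups came from the labels, which number the samples without naming the mouse, so p-values measure the spread between these samples. Genes were tested in edgeR 4.0.16 by its quasi-likelihood F test (in R 4.3.3 with TMM, filterByExpr, robust) without covariates, with Benjamini-Hochberg adjustment over 14476 genes and a threshold of 0.05. SE is the size of the log2 fold change over the square root of F. CPM used TMM-scaled totals, log2 CPM a prior count of 2, and levels per kilobase the union of exons in GENCODE M21. Correlations were Pearson r of log2 CPM over 8 libraries, with exact permutation for Srebf1 and Mlxipl (scipy 1.17.1). Counts were simulated for this comparison over 14310 genes. Called were 51 of 67 genes changed 1.5-fold, 65 of 67 changed 2-fold and 10 of 14110 unchanged genes. The changed genes were drawn at random and each gene was simulated independently. The 30 genes had a larger median standard deviation (0.400 in GFP and 0.352 in arcA, against 0.204 and 0.191 over all genes) and co-varied. These shares therefore do not give the sensitivity for the 30 genes.

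Alternatives were other scalings and filters, DESeq2 1.42.0, limma voom 3.58.1, a surrogate variable (sva 3.50.0), a replicate block and libraries left out. The members and gene lists were chosen with earlier results of these data known. The lowest, median and highest values of each group are given for genes called by any of the 3 tools and for Srebf1, Fasn, Acaca, Scd1, Gpam, Dgat1 and Pnpla3. Other members are given by range, the further lists by up to 6 genes of smallest p, and gene pairs by the 3 highest and 3 lowest r in each group.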

Additional observations from a re-analysis of the deposited data

Results flagged for a closer look

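In 13 of 60 sets of 8 values (30 genes in 2 groups), the highest library lay far from the rest. Its gap to its neighbour, as a share of the whole range, was above Dixon's 95% critical value. For normally distributed values about 1 of 20 sets would pass it. The ratio was taken on CPM, where high values stand farther apart than on the log2 scale, so that share does not apply here. In 10 of the 13 sets the library was arcA 6, and since the genes co-vary the sets are not independent. In arcA 6, Acss2 was at 316 CPM (next library 222), Acaca at 178 (122), Fasn at 2297 (1216) and Elovl5 at 999.8 (726). Scd1 was at 17891 CPM in arcA 6 (next 11499), Fads1 at 626 (434), Fads2 at 480.1 (331), Gpam at 308 (179), Lpin1 at 46.3 (28.0) and Pnpla3 at 16.1 (4.30).

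In the GFP group the values that stood apart came from 3 different libraries. Elovl3 was at 75.5 CPM in GFP 1 (lowest GFP library 7.64), Fads2 at 491 in GFP 7 (lowest 199.6) and Dgat2 at 664 in GFP 8 (lowest 411).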

How the results depend on the processing

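Over 30 alternatives and 900 values of single genes, 841 kept sign and call, 47 changed sign without ever being called, 6 calls were lost and 6 gained, and 0 called genes reversed. The lost calls were those of Mlxipl and Dgat2, and for Dgat2 the adjusted p was also 0.0752 with total counts alone (log2 fold change 0.29) and 0.0659 without GFP 3 and GFP 7 (0.28). The gained calls outside Elovl3 and Lpin1 were Khk with hepatocyte marker scaling (-0.30, adjusted p = 0.0217, or -0.13 relative to the median of all genes) and Thrsp with the replicate block (-0.37, adjusted p = 0.0439). The cause was not tested.

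With total counts alone the genes higher were 255, the members higher 1, the further pathway genes higher 2, and the median GFP r 0.854. With hepatocyte marker scaling they were 67, 0 and 1, with 2782 genes, 1 member and 22 further genes lower. The filter of 1 CPM gave 407 genes higher, and 5 further genes higher and 3 lower, and no filter gave 5 further genes higher. Further genes lower were 2 with DESeq2's size factors in edgeR, 3 with upper-quartile scaling, 6 with DESeq2, 4 with limma voom, 3 without arcA 3 and 8, and 2 without Gm42418 and Lars2. With limma voom 1 member was lower. Without GFP 2, 3 and 5 there were 369 genes higher, 0 members higher, and 3 further genes higher and 8 lower. Without GFP 3 and 7, chosen after seeing the data, there were 344, 1 and 4 higher.

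Leaving out single libraries gave 389 to 638 genes higher and 731 to 1046 lower, 2 to 3 members higher and 0 to 1 lower, a median of the members from -0.12 to 0.080, 4 to 10 further genes higher and 1 to 5 lower, and a median r of 0.67 to 0.82 in GFP and 0.26 to 0.68 in arcA. Same-numbered samples shared little (r of their deviations -0.049 to 0.16, and 2 of 8 correlated best with their own number), so the numbers were not taken as pairs. With the replicate block 592 genes were higher and 876 lower, 2 members higher and 1 lower, and 4 further genes lower. Depth was not the limit for most members, but Pnpla3 had as few as 17 counts in a library.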

Other observations

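Genes that respond to feeding and to the clock are known to move with lipogenesis in liver, and 12 of each kind were looked up. Of 11 tested feeding and fasting genes, 0 passed with edgeR and 1, Insr, had an unadjusted p under 0.05. Insr, the insulin receptor gene, was at 63.9 to 81.5 CPM in GFP and 73.2 to 90.6 in arcA libraries (log2 fold change 0.17, SE 0.0567, edgeR adjusted p = 0.0557). Of 12 clock genes, 0 passed with edgeR and 1, Nr1d1, had an unadjusted p under 0.05. Nr1d1, which encodes the repressor REV-ERB alpha, was at 41.0 to 81.4 CPM in GFP and 47.2 to 111 in arcA libraries (log2 fold change 0.49, SE 0.179, edgeR adjusted p = 0.0977).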
